A study of Mus musculus with 6 samples.

Results

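Coenzyme Q (ubiquinone) is a lipid of the inner mitochondrial membrane that carries electrons between the dehydrogenases and complex III, and it also serves as an antioxidant. Cells make it by building a long isoprenoid tail from mevalonate pathway products, joining the tail to an aromatic ring, and then modifying the ring with a set of mitochondrial enzymes that act as a complex. Inherited loss of these enzymes in humans causes coenzyme Q deficiency, in which the brain is among the organs affected.

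The 10 genes described here are Pdss1, Pdss2, Coq2, Coq3, Coq4, Coq5, Coq6, Coq7, Coq9 and Coq10b, found by their exact symbols among the 24848 genes of the deposited tables. They were chosen by pathway together with the measured KO and WT levels of Pdss2, whose fall in E4f1 knockout brains was already known. Their differences between genotypes are therefore descriptions, and the call of Pdss2 supports nothing by itself.

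RNA-seq was performed on brains of mouse embryos at E14.5, of which 3 were labelled E4f1 KO and 3 wild type (WT). E4F1 is a transcription factor of the zinc finger class. The study's title links it to pyruvate metabolism, the Elongator complex and the fidelity of translation in the developing brain. The sources used here give neither the design of the KO allele nor the promoter or cell type that any Cre was driven by, nor the strain, sex or litter of the embryos. Each brain had its own animal number, and p-values measure the spread between these brains.

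The expected counts, RSEM's estimates of read pairs per gene, summed to between 50186590 and 69068011 in KO libraries and to between 42113465 and 74064707 in WT libraries, and 15848 genes were tested. Of those, edgeR called 159 (1.0%) at an adjusted p below 0.05, of which 78 were lower (0.492%) and 81 higher (0.511%) in KO. Levels are given in TPM, which are scaled to transcript length, unless CPM, which are not, are named. The targeted gene had 7.34, 7.18 and 6.91 TPM in KO 1 to KO 3, against 21.4, 22.4 and 22.2 TPM in WT 1 to WT 3 (E4f1, log2 fold change -1.60 ± 0.08, SE, n = 3 per group, edgeR adjusted p = 0.00142). Neuron and radial glia markers were detected in every library, with summed levels of 3836 to 4449 and 1971 to 2103 TPM in KO and of 5144 to 5944 and 2279 to 2612 TPM in WT.

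Pdss2 stood apart from the rest of the pathway. Pdss2 and Pdss1 encode the subunits of the polyprenyl diphosphate synthase that makes the isoprenoid tail, the first step committed to coenzyme Q. Pdss2 was at 3.59, 5.25 and 4.0 TPM in KO 1 to KO 3, against 12.4, 11.6 and 10.6 TPM in WT 1 to WT 3. The groups did not overlap: the highest KO library was below the lowest WT library. Behind these levels stood 159, 187 and 130 expected counts in the KO libraries and 568, 293 and 435 in the WT libraries. The level in KO was 0.378 of that in WT (log2 fold change -1.40 ± 0.19, SE, n = 3 per group, 95% interval -1.86 to -0.95). Of all tested genes, 166 had a lower fold change. In bulk tissue, fewer cells that express a gene and less RNA per cell cannot be told apart.

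The promoter of Pdss2 is shown because it holds a repeated sequence that recurs below. RefSeq places the gene on chromosome 10 (43218248 to 43464882, plus strand, GRCm38). The promoter window runs from 250 bases before to 50 after a start inside that span, at 43221486, which is where the GENCODE gene begins, and positions below are counted from it. In the RefSeq promoter sequence (GRCm38.p6, chr10:43221236-43221535, plus strand) capitals mark the octamer TTTACGGC, which stands on the minus strand in the first copy, where it reads GCCGTAAA, and on the plus strand in the second. The promoter of Pdss1, the partner subunit, is given for comparison (chromosome 2, 22895272 to 22895571, plus strand) and holds no copy.
Pdss2: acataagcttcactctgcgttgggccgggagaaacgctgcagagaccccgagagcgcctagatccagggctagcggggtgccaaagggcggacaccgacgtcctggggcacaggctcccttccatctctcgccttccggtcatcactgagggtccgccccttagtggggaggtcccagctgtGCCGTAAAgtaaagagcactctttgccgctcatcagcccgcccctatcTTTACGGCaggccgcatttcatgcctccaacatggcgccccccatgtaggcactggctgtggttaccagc
Pdss1: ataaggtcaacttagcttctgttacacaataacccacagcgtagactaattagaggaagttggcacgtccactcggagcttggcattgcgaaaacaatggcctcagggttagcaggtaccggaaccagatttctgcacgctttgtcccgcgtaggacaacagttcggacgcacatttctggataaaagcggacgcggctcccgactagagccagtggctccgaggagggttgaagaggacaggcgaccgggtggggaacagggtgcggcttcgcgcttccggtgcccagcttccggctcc

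**Figure D1:**
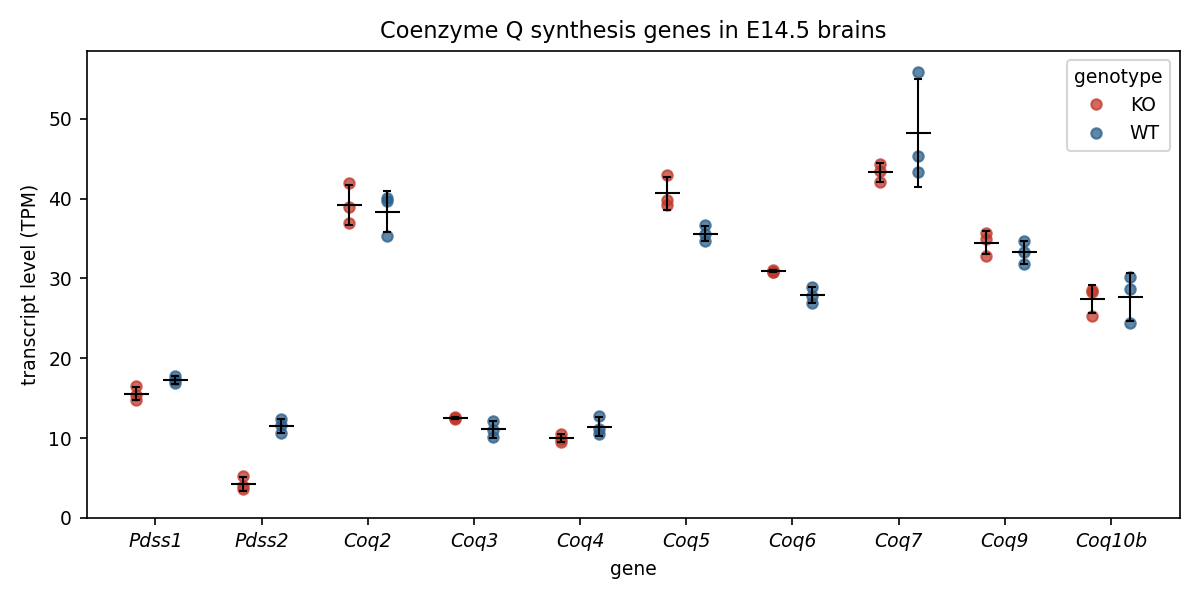
Transcript level in TPM of each of the 10 genes, with the KO libraries (red) left of the WT libraries (blue), 1 point per brain, and the mean with its SD as black bars. Pdss2 lies between 3.59 and 5.25 TPM in KO and between 10.6 and 12.4 TPM in WT, while the other genes differ little between the genotypes.

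Pdss1 differed far less than its partner. It was at 16.5, 15.4 and 14.8 TPM in KO 1 to KO 3 and at 17.2, 17.7 and 16.8 TPM in WT 1 to WT 3. Its KO libraries all lay below its WT libraries, by a small margin, and it did not pass the test (log2 fold change -0.15 ± 0.09, 95% interval -0.36 to 0.06, edgeR adjusted p = 0.393). The ratio of Pdss2 to Pdss1, both in TPM, was 0.218, 0.340 and 0.270 in KO and 0.718, 0.653 and 0.628 in WT. Transcripts of the synthase subunits were thus further from parity in every KO brain.

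Pdss2 was the only member that edgeR called, so 1 of 10 members was called lower, beside 0.492% of all tested genes, and 0 were called higher. At an unadjusted p below 0.05 the members held 1 lower gene, Pdss2, and 1 higher gene, Coq5, beside 19.6% of all tested genes in either direction. DESeq2 called Pdss2 alone among the members, beside 8.87% of all genes it tested (4.06% lower and 4.81% higher). The call rested on few brains. It held without KO 2 (adjusted p = 0.0463) and ended without KO 1 (0.170), KO 3 (0.111), WT 1 (0.0924), WT 2 (0.0918) or WT 3 (0.122), with log2 fold changes between -1.57 and -1.28 in these 6 edgeR fits.

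The other 9 members spanned log2 fold changes from -0.17 to 0.21, with a median of 0.05, and their edgeR adjusted p-values lay between 0.183 and 0.981. Their 95% intervals reached from -0.44 to 0.45, so none included a change of the size seen for Pdss2. Over all tested genes the median was -0.00077. The summed level of these 9 genes was 254 ± 4.78 TPM in KO and 251 ± 6.89 TPM in WT (SD, n = 3 each), and Pdss2 made up 1.66 ± 0.345% of the summed level of all 10 in KO and 4.38 ± 0.221% in WT.

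**Figure D2:**
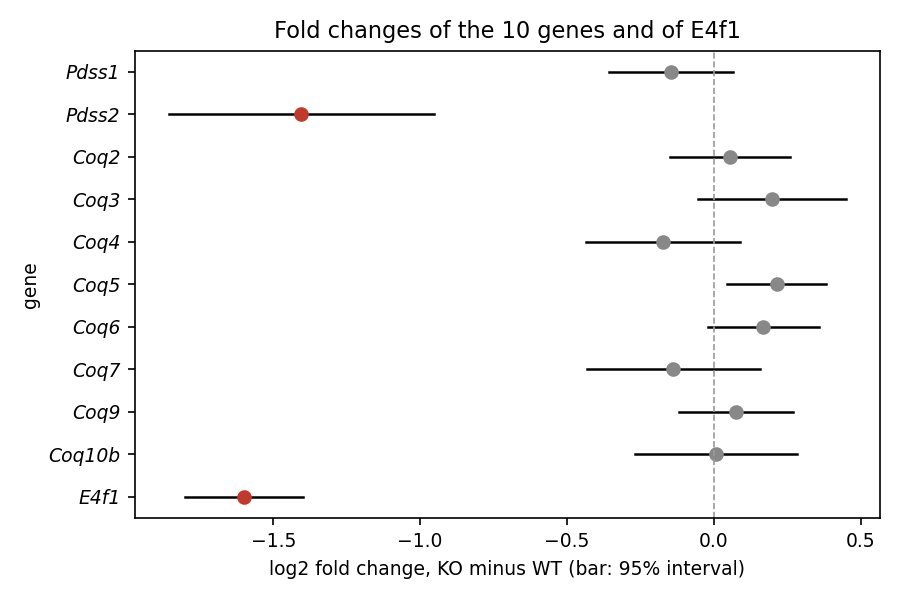
Log2 fold change of KO minus WT for the 10 genes and E4f1 (edgeR), with the 95% interval as a bar; red marks an adjusted p below 0.05. Pdss2 (-1.40) and E4f1 (-1.60) lie to the left, and the other 9 genes lie between -0.17 and 0.21.

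Coq2 is the prenyltransferase that joins the tail to the ring, the step that uses the product of Pdss1 and Pdss2. It was at 41.9, 38.9 and 36.9 TPM in KO 1 to KO 3 and at 39.7, 40.1 and 35.4 TPM in WT 1 to WT 3. The groups overlapped, and the log2 fold change was 0.05 ± 0.08 (95% interval -0.15 to 0.26).

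The ring methyltransferases are Coq3, which acts on oxygen, and Coq5, which acts on carbon. Coq5 was at 43.0, 39.1 and 39.8 TPM in KO and at 34.7, 36.6 and 35.5 TPM in WT, without overlap, and had the largest positive fold change of the members (log2 fold change 0.21 ± 0.07, 95% interval 0.05 to 0.38, edgeR adjusted p = 0.183). Coq3 was at 12.6, 12.5 and 12.4 TPM in KO and at 10.1, 12.2 and 11.0 TPM in WT, again without overlap (0.20 ± 0.10, adjusted p = 0.342). Neither passed the test.

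The hydroxylases Coq6 and Coq7 and the lipid-binding protein Coq9, which works with Coq7, add oxygen to the ring. Coq6 was at 30.8, 31.0 and 30.8 TPM in KO and at 27.8, 26.97 and 29.0 TPM in WT, without overlap (log2 fold change 0.17 ± 0.08, edgeR adjusted p = 0.300). Coq7 was at 44.4, 43.4 and 42.03 TPM in KO and at 55.9, 43.4 and 45.4 TPM in WT, where WT 1 was high (-0.14 ± 0.12, adjusted p = 0.559). Without WT 1 its log2 fold change was -0.02. Coq9 was at 34.9, 32.8 and 35.6 TPM in KO and at 33.4, 34.6 and 31.8 TPM in WT, with overlap (0.07 ± 0.08, adjusted p = 0.632).

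Coq4, which the synthesis complex needs to hold together, was at 9.90, 10.5 and 9.54 TPM in KO and at 11.1, 12.7 and 10.5 TPM in WT. The groups touched at 10.48 TPM, and the log2 fold change was -0.17 ± 0.11 (edgeR adjusted p = 0.418). Coq10b, a coenzyme Q binding protein whose yeast counterpart is needed for its function in respiration, was at 25.4, 28.5 and 28.3 TPM in KO and at 28.7, 24.4 and 30.1 TPM in WT. These overlapped fully (0.01 ± 0.11, adjusted p = 0.981).

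By CPM, KO libraries lay all below WT libraries for 2 of the 10 members, Pdss1 and Pdss2, and all above them for 3, Coq3, Coq5 and Coq6. Of all tested genes, 13.0% lay all below and 14.6% all above.

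The order of the levels differed between the genotypes at its low end. In KO the order from low to high was Pdss2, Coq4, Coq3, Pdss1, Coq10b, Coq6, Coq9, Coq2, Coq5 and Coq7, and neighbours overlapped for Coq2 with Coq5 and for Coq5 with Coq7. In WT the order was Coq3, Coq4, Pdss2, Pdss1, Coq10b, Coq6, Coq9, Coq5, Coq2 and Coq7, and the first 3 overlapped, as did Coq10b with Coq6 and Coq5 with Coq2. By brain, Pdss2 was the lowest member in KO 1, KO 2 and KO 3, and also in WT 2. In KO it was at 4.28 ± 0.865 TPM, where the next, Coq4, averaged 9.97 ± 0.474 TPM (SD, n = 3). Its relative spread among KO brains, an SD of 20.2% of the mean, exceeded that of the other members in KO (0.398% to 6.47%), and it was 7.75% in WT.

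The transcript makeup of the members, which the choice of genes did not use, was compared through transcript length. RSEM gives each gene an effective length, which averages its transcripts by their abundance and subtracts the fragment length. For Pdss2, listed with 2 RefSeq transcripts, it averaged 1552 ± 5.08 bases in KO and 1555 ± 4.36 bases in WT (SD, n = 3 each; exact two-sided permutation test, p = 0.50). Before that subtraction its length was 1773 bases in all 3 KO libraries and between 1771 and 1773 bases in WT. Pdss1, with 3 transcripts, varied most, at 2135 ± 54.4 bases in KO and 2171 ± 16.6 bases in WT (exact permutation p = 0.40). Coq2, Coq5, Coq6 and Coq9 have 1 transcript each, so their makeup cannot differ, and their shared difference of -3.61 bases is that of the fragment length. The difference of -3.08 bases for Pdss2 is close to it. For the 6 members with several transcripts, the length before the subtraction gave exact permutation p-values between 0.50 and 1.0, and with 3 brains against 3 the test cannot go below 0.10.

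The genes on either side of Pdss2 did not pass the test. Bend3, the next protein-coding gene, begins 13949 bases after the end of Pdss2 and averaged 49.4 ± 2.74 CPM in KO and 51.1 ± 6.32 CPM in WT (log2 fold change -0.05 ± 0.11, edgeR adjusted p = 0.820). The gene before it, 9030612E09Rik, ends 44924 bases away and averaged 1.87 ± 0.0883 CPM in KO and 1.79 ± 0.395 CPM in WT (0.06 ± 0.22, adjusted p = 0.900). In GENCODE, the exons of Pdss2 share 33 bases with those of Gm47856, a transcript of unsettled status on the same strand. On the opposite strand, Coq4 shares 921 exon bases with Trub2, Coq10b 343 with E330011M16Rik, Pdss1 207 with A130006I12Rik and 194 with Abi1, Coq6 128 with Fam161b and Coq9 38 with Ciapin1. The strand setting of the counting is not given, so the counts of these members may hold reads of their partners.

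Some members have a gene starting on the other strand within 1000 bases. Ciapin1, an iron-sulfur cluster assembly factor whose start lies 37 bases from that of Coq9, averaged 47.9 ± 1.82 CPM in KO and 59.1 ± 2.36 CPM in WT without overlap, and did not pass the test (-0.30 ± 0.06, edgeR adjusted p = 0.0910). Fam161b, which starts 176 bases from Coq6, had a log2 fold change of -0.14 ± 0.11 (edgeR adjusted p = 0.527). A130006I12Rik, 214 bases from the start of Pdss1, and E330011M16Rik, 342 bases from that of Coq10b, were not tested.

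The octamer of the Pdss2 promoter was noticed in the promoter sequences of Pdss2, Ddi2 and Pbrm1 and then searched on both strands of every 300-base promoter in the RefSeq table. Among the 9 members with a promoter there, all except Coq5, Pdss2 alone holds it, with 2 copies. Of the 12236 tested genes with a promoter, other than the 3 it was read from, 74 hold it (0.605%). Among these 12236 genes, 20 of the 53 called lower in KO hold it (37.7%). Of the 65 called higher, 2 hold it (3.08%), Cep290 and Gnl3. Called genes without a promoter in the RefSeq table were not searched. The share among genes called lower was 6.03% (31 of 514) with DESeq2, 68.8% (11 of 16) without KO 1 and 57.7% (15 of 26) without WT 2. These shares describe the same contrast that chose Pdss2 and were not tested, and genes that share a promoter, such as Tube1 and Fam229b, are not independent of each other.

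Seen from the octamer, the 74 genes had a median log2 fold change of -0.31, against 0.00 in the 12162 tested genes without it. The share called lower was 27.03% with it and 0.271% without it, and KO libraries lay all below WT libraries in 44.6% with it and 12.9% without it. Fold changes were negative in 49 of the 74 (66.2%) and in 49.8% of the genes without it, and many genes with it were not called; Chek1, for example, had -0.35 ± 0.29 (edgeR adjusted p = 0.535). Besides Pdss2, 6 tested genes hold at least 2 copies, and 3 of them were called lower, Ndufs5, Neurl4 and Znhit6.

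**Figure D3:**
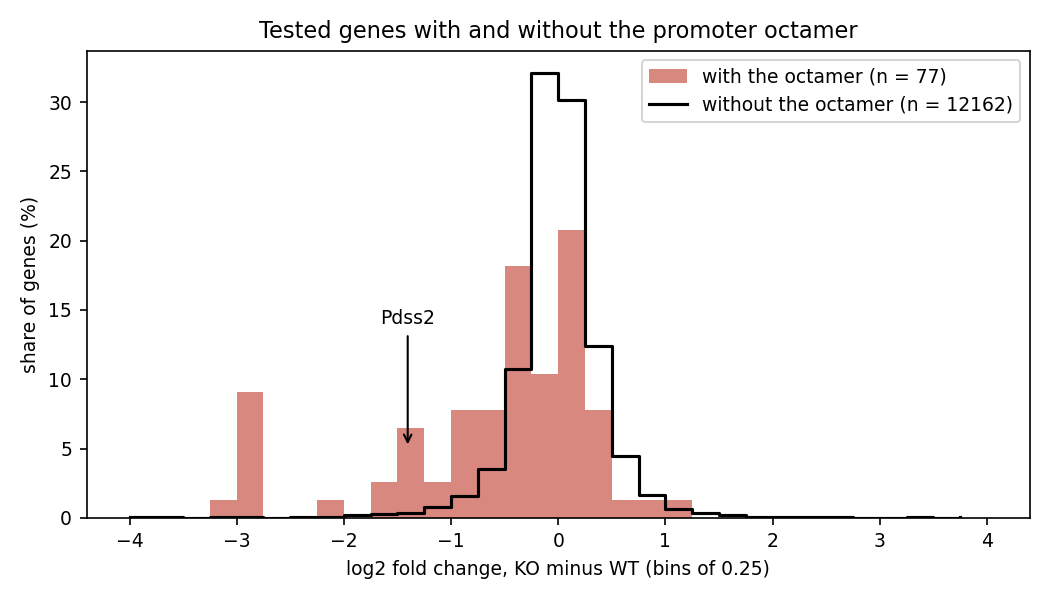
Share of tested genes in bins of 0.25 of the log2 fold change (KO minus WT), for the 77 genes whose promoter holds the octamer (red bars, the 3 genes it was read from included) and the 12162 without it (black line). In the bin of Pdss2 (-1.40) the red bar holds 6.49% of its genes and the black line 0.354%. Pbrm1 (-1.38) and Ddi2 (-1.30) stand in that bin too, so all 3 genes the octamer was read from raise this red bar. The black line centres on 0 and extends further to the left than the red bars, which end at Tube1 (-3.06). Values beyond 4 in size stand in the end bins.

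The sequence around the octamer is shown for Pdss2 and for the 6 other genes called lower that hold it and had the smallest p, each read on the strand on which the octamer, in capitals, stands (GRCm38.p6).
Pdss2 copy 1, chr10:43221408-43221435, minus strand: tgctctttacTTTACGGCacagctggga
Pdss2 copy 2, chr10:43221456-43221483, plus strand: cgcccctatcTTTACGGCaggccgcatt
Leo1, chr9:75441517-75441544, minus strand: tcgagcctgcTTTACGGCcagacccgtc
Znhit6 copy 1, chr3:145576149-145576176, minus strand: tgtagcgttcTTTACGGCacggcggctt
Znhit6 copy 2, chr3:145576198-145576225, plus strand: gaacagctgcTTTACGGCtagctcggct
Dph5, chr3:115888137-115888164, plus strand: ggctctgcgcTTTACGGCgccgttaggt
D230025D16Rik, chr8:105225148-105225175, plus strand: tttgccacgcTTTACGGCccggcacgcc
Neurl4 copy 1, chr11:69901690-69901717, minus strand: gggggactgcTTTACGGCccagcgggac
Neurl4 copy 2, chr11:69901772-69901799, minus strand: cctggtgtgcTTTACGGCactgaagcgt
Pbrm1, chr14:31019131-31019158, plus strand: acaggttggaTTTACGGCagcactggga
The octamer occurred in either orientation. In Pdss2 the middles of the copies lie 64 and 16 bases before the start, in Leo1 7 bases after it. Only windows from 250 bases before to 50 after a start were searched, so sites further away were not seen. With each site counted once per gene and placed from the nearest of its starts, the median position of the 27 sites in the 23 genes called lower was 30 bases before the start, and that of the 58 sites in the 54 other tested genes was 40 bases before it. From 100 bases before to 50 after the start lay 25 of those 27 sites and 38 of those 58. The 23 genes include the 3 the octamer was read from, whose sites all lie in that span. The log2 fold changes were -1.69 ± 0.08 for Leo1, a subunit of the PAF transcription complex, -2.77 ± 0.15 for Znhit6, a snoRNP assembly factor, -2.89 ± 0.18 for Dph5, a diphthamide synthesis enzyme, and -2.78 ± 0.18 for the centriolar Neurl4. D230025D16Rik had -1.48 ± 0.09, and Pbrm1, one of the 3 genes the octamer was read from, had -1.38 ± 0.09, close to Pdss2.

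E4F was first described through its binding to sites of the ATF and CREB kind in a viral promoter, and stress response factors such as ATF4 bind a related composite site. The letters TGACGT, and TGACGTAA and TGACGTCA, which contain them, were in 0 of the 10 promoter windows of the 9 members, and so was TGATGCAA (both strands). Among the 15547 promoter windows of tested genes, 10.5% hold TGACGT, 0.753% TGACGTAA, 2.86% TGACGTCA and 0.553% TGATGCAA. The E4f1 promoter holds none of these 4 and no octamer in its window.

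The genes whose pattern over the 6 libraries was most like that of Pdss2 were found by the root mean square difference of log2 CPM, each gene centred on its mean. They were Pigk (0.173), a subunit of the GPI transamidase, Ddi2 (0.176), a protease that activates a proteasome regulator, Slc26a1 (0.187), a sulfate transporter, Pbrm1 (0.194), a chromatin remodelling subunit, and the centrosomal Lrrcc1 (0.197). Pigk was at 8.58, 12.4 and 8.60 TPM in KO and at 22.9, 23.5 and 18.2 TPM in WT. Within KO it was highest in KO 2, as Pdss2 was. The 5 genes were picked for likeness in these same libraries, so their shared pattern is a description and supports nothing by itself. Pigk (adjusted p = 0.0588) and Slc26a1 (adjusted p = 0.0735) were not called by edgeR. Ddi2 was at 12.9, 14.45 and 14.2 TPM in KO and at 35.1, 31.8 and 36.9 TPM in WT. E4f1 itself ranked 8th (0.207) and was even among the KO libraries, unlike Pdss2.

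**Figure D4:**
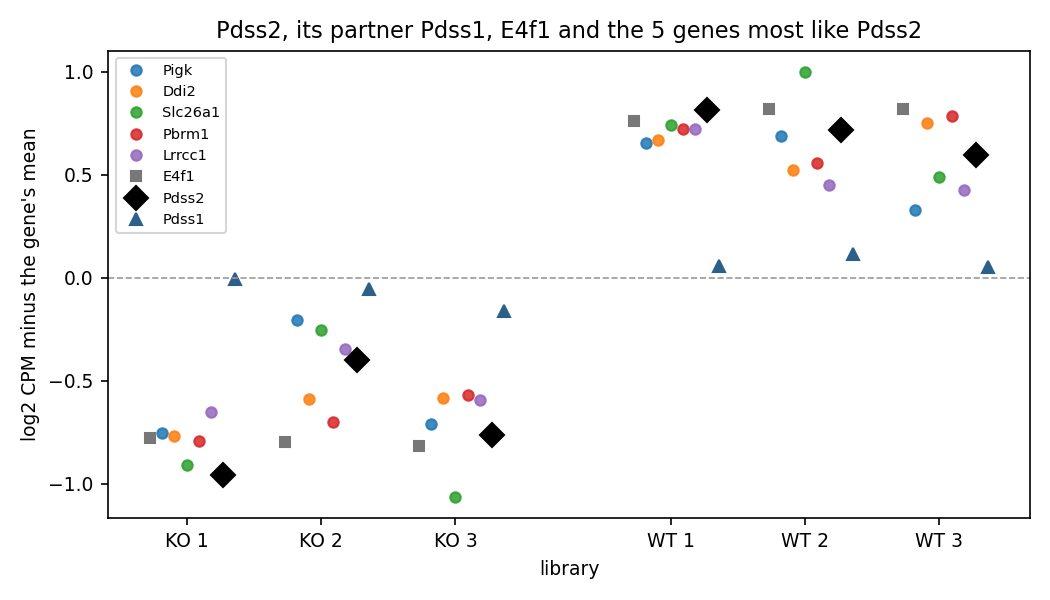
Log2 CPM minus the gene's mean over the 6 libraries (KO 1 to KO 3 left, WT 1 to WT 3 right; points of a library are spread sideways for legibility) for Pdss2, the 5 genes most like it, E4f1 and Pdss1. Pdss2 and the 5 genes, which were picked for likeness to it in these libraries, lie below 0 in each KO library and above 0 in each WT library. Pdss1 stays near 0.

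Other genes that act on coenzyme Q did not pass the test. Of 15 tested genes besides the 10 members, edgeR called 0 and DESeq2 0, beside 1.0% and 8.87% of all genes each tested. At an unadjusted edgeR p below 0.05, 1 was higher and 0 lower, beside 19.6% of all tested genes in either direction. The median log2 fold change was 0.02. Hpdl, which in humans serves the synthesis of the ring precursor, had the largest at 0.57 ± 0.29 (edgeR adjusted p = 0.325) at 0.677 TPM in KO and 0.460 TPM in WT, a low level. Fdxr, the ferredoxin reductase that passes electrons to Coq6, had 0.28 ± 0.11 (adjusted p = 0.2501). The kinase-like Coq8a and Coq8b had -0.06 ± 0.36 and 0.18 ± 0.09, and Coq10a, the paralog of Coq10b, had -0.20 ± 0.11 (edgeR adjusted p = 0.345). Coq8a, Coq8b and Coq10a were named with their values seen.

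The mevalonate pathway and the enzymes that draw on its prenyl diphosphates supply or compete for the substrate of Pdss1 and Pdss2. Of 17 tested, edgeR called 0, beside 1.0% of all tested genes. At an unadjusted edgeR p below 0.05, 2 were higher and 1 lower, beside 19.6% of all tested genes in either direction. DESeq2 called 2 higher, Trit1 and Fdft1, beside 4.81% of all genes it tested. Trit1, which prenylates tRNAs, was at 44.5, 39.3 and 36.5 TPM in KO and at 30.1, 28.5 and 27.7 TPM in WT (log2 fold change 0.52 ± 0.09, edgeR adjusted p = 0.0611). Fdft1, squalene synthase, was at 182, 172 and 158 TPM in KO and at 140, 152 and 140 TPM in WT (0.27 ± 0.07, adjusted p = 0.131). In both, every KO brain exceeded every WT brain. Fdps and Ggps1, which make the shorter prenyl diphosphates, had 0.02 ± 0.11 and -0.20 ± 0.09, and the list median was 0.01.

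Among 23 enzymes that pass electrons to or from coenzyme Q, edgeR called 0, beside 1.0% of all tested genes. At an unadjusted edgeR p below 0.05, 4 were higher and 0 lower, beside 1631 higher and 1475 lower of all 15848 tested genes. DESeq2 called 1 higher, Etfb, the electron transfer flavoprotein subunit, beside 4.81% of all genes it tested. Etfb was at 93.7, 95.7 and 104 TPM in KO and at 84.3, 72.0 and 71.1 TPM in WT. Aifm2 (FSP1), which reduces coenzyme Q at the plasma membrane, was at 8.38, 12.3 and 7.11 TPM in KO and at 5.03, 7.73 and 5.05 TPM in WT, with overlap (log2 fold change 0.73 ± 0.27, edgeR adjusted p = 0.224). Prodh, which passes electrons from proline, had 0.52 ± 0.20 (adjusted p = 0.232). The list median was 0.10, and 16 of 23 fold changes were positive, beside 7909 of 15848 over all tested genes.

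**Figure D5:**
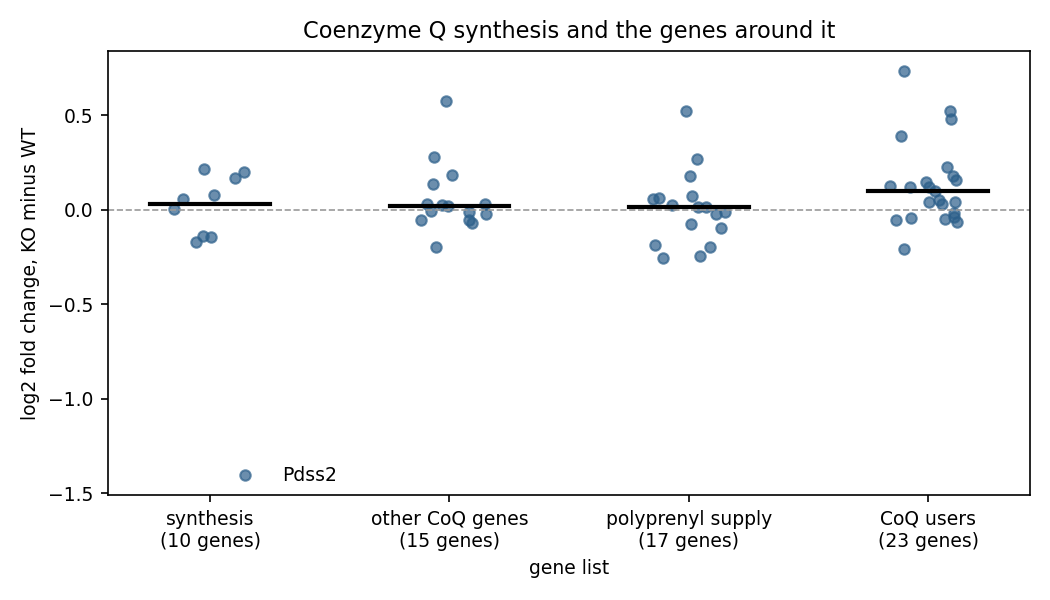
Log2 fold change of KO minus WT for the 10 synthesis genes, 15 other coenzyme Q genes, 17 genes of polyprenyl supply and use, and 23 enzymes that use coenzyme Q (CoQ), 1 point per gene, with the list median as a line. Pdss2, at -1.40, is the only point below -0.26.

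Of the cell type and region markers, edgeR called 1, the microglial Cx3cr1 (log2 fold change 1.03, adjusted p = 0.0395). It called 0 in the neuronal, radial glia, endothelial, midbrain and other lists, beside 159 of all 15848 tested genes. Several summed levels nevertheless did not overlap between the genotypes. By CPM, 13.0% of all tested genes had KO libraries all below WT libraries, and 14.6% had them all above. The summed level of 5 neuronal markers was lower in every KO library than in any WT library (ranges above; 4 of 5 markers without overlap). So was that of 3 midbrain markers, En1, En2 and Pax5 (adjusted p = 0.138, 0.126 and 0.0958, edgeR), at 0.380 to 1.60 TPM in KO and 3.45 to 70.3 TPM in WT (3 of 3). The sum of 5 radial glia markers was lower mainly through Fabp7 (-0.58, edgeR adjusted p = 0.0555). Hes5 also had a negative log2 fold change (-0.13, edgeR adjusted p = 0.817), while Sox2 (0.13), Pax6 (0.08) and Vim (0.19) had positive ones. The sums of 5 microglial markers (76.3 to 99.7 TPM in KO, 41.9 to 65.1 TPM in WT, 4 of 5 higher without overlap) and of 5 endothelial markers (223 to 306 TPM in KO, 165 to 208 TPM in WT, 4 of 5) were higher. Sums of 5 erythroid, 5 meningeal and 5 telencephalic markers overlapped between the groups. Those of 4 skeletal muscle markers also overlapped, at 2.81 to 20.9 TPM in KO and 1.2 to 5.45 TPM in WT, with Ckm at 0 in some libraries. The midbrain score was lower in every KO library (-3.36 to -1.46) than in any WT library (-0.24 to 4.12). With this score as a covariate Pdss2 had -1.03 ± 0.32 and was not called (edgeR adjusted p = 0.988). That fit called 0 genes, and E4f1 itself was not called (-1.65 ± 0.16, adjusted p = 0.242). Because the score separates the genotypes, the fit cannot decide the part of the midbrain in the level of Pdss2. In the fit on KO 1, KO 2, WT 1 and WT 2, Pdss2 had -1.42 ± 0.25 (edgeR adjusted p = 0.310). The part of the other markers in the level of Pdss2 was not tested.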

How the data were processed

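Per the labels' protocols, RNA came from frozen dissected brains by Trizol extraction and went into KAPA stranded mRNA libraries. STAR (2.5.3a), RSEM (1.2.28), Trimmomatic and FastQC are named in the submitters' processing notes, with mm10 and GRCm38. The sources used here give no settings, strand included. Per the file headers, the authors' tables give expected counts, TPM and lengths for each gene.

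The deposited expected counts were rounded and tested with edgeR (4.0.16): filterByExpr, TMM scaling and the robust quasi-likelihood F test, two-sided, with Benjamini-Hochberg adjustment over 15848 genes, checked on simulated data. SE follows from the F statistic. CPM are TMM-scaled. DESeq2 (1.42.0) and limma (3.58.1) were alternatives. The authors' TPM values were used for levels.

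The members, lists and midbrain score were chosen with earlier results of these data known, and the octamer after its sequences were seen. Named genes were the members, E4f1, the neighbours, the 5 most like Pdss2, and in each other list the called genes or otherwise the 2 largest changes; Etfb, Coq8a, Coq8b, Coq10a, Fdps, Ggps1 and the genes named with the octamer lie outside that rule and were chosen with values seen. Promoters came from RefSeq (GRCm38.p6), overlaps from GENCODE M21.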

Additional observations from a re-analysis of the deposited data

How the results depend on the processing

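The log2 fold change of Pdss2 was negative in all 15 alternatives, between -1.57 and -1.03, and it was called in 7 of them: DESeq2, both limma fits on TPM, both other scalings, no filter on low counts and without KO 2. The 159 calls over all genes became 1438 with DESeq2, 247 and 241 with limma on log2 TPM at pseudocounts of 1 and 0.1, and 36 to 82 without 1 library, and the 1 called member became 0 to 1. With the replicate number as a block, 66 genes and 0 members were called, Pdss2 having -1.42 ± 0.19 (edgeR adjusted p = 0.0706). The deviations of same-numbered brains from their group means correlated at 0.0992, 0.235 and 0.0757. Other pairs ranged from -0.228 (KO 1 with WT 2) to 0.157 (KO 1 with WT 3). KO 2 correlated best with WT 2 and KO 3 with WT 3, while KO 1 correlated best with WT 3. Whether the numbers pair the brains was not tested. In the fit on KO 1, KO 2, WT 1 and WT 2 and with the midbrain score as covariate edgeR called 0 genes and 0 members, against 1546 and 740 genes at an unadjusted p below 0.05. DESeq2 called 2 polyprenyl supply genes and 1 coenzyme Q user, where edgeR called 0. Of the other 9 members none was called in any alternative, and the direction turned for 2: Coq7 with the midbrain score (0.043), and Coq10b with limma at pseudocounts of 1 (-0.013) and 0.1 (-0.014), with the midbrain score (-0.063), and without KO 2 (-0.019), KO 3 (-0.037) or WT 2 (-0.080), its range without 1 library being -0.080 to 0.070. For these changes the cause was not tested. The share holding the octamer was taken over genes called lower with a RefSeq promoter, without the genes it was read from. It was 6.03% with DESeq2 (31 of 514) and between 25.3% and 68.8% in the other fits that called any. Effective length differences between KO and WT moved by less than the spread between brains in every fit without 1 library (Pdss1 between -60.9 and -6.92 bases, Coq10b between -6.30 and 0.52), and with the uncorrected length, an alternative added after the data were seen. Between 130 and 187 counts behind Pdss2 in KO limit its precision.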
